A study of Saccharomyces cerevisiae with 24 samples.

Results

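The hexose-transport mutant V5.TM6*P, sampled while glucose was still plentiful, was set against its parent V5, sampled when glucose was running low. The mutant side held the RNA samples of sampling points 1 and 2, taken at 36.5 and 34.8 g/L residual glucose, and the V5 side held those of sampling points 5 and 6, taken at 10.5 and 7.4 g/L. Samples were chosen by strain and glucose concentration as labelled, which gave 4 of the 12 RNA samples and 8 of the 24 arrays. The comparison asks which differences of the mutant from its parent are not shown by a parent that is itself short of glucose. V5 is a wine strain of Saccharomyces cerevisiae (MATa gal), and V5.TM6*P is the same strain with HXT1 to HXT7 deleted and a cassette for TM6*, a chimera of Hxt1 and Hxt7, as its hexose transporter. Both strains carried an integrated URA3 gene. Both grew aerobically in bioreactors at pH 5 and 30 °C, in minimal medium that began with 5% glucose as sole carbon source. Each RNA sample was hybridised to 2 filter arrays, and V5 at 38.4 and 35 g/L served as the second reference. The labels do not assign the samples to fermentations, so the p-values measure only the spread between these samples, which may be technical. A single mutant strain was used.

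When glucose is abundant, S. cerevisiae ferments it to ethanol and keeps genes for respiration, gluconeogenesis and the use of other carbon sources repressed, in part through the repressor Mig1. As glucose falls, the repression is lifted, and activators such as Hap4, for respiratory genes, and Cat8, for gluconeogenic genes, come into play. Uptake is carried by the Hxt transporters, some of which serve high glucose and others low glucose.

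Levels are given as the log2 of the background-subtracted spot intensity, relative to the median of the array, as the mean of 2 arrays. They compare samples for the same gene, not one gene with another, and say nothing of the amount of RNA per cell. Names were at hand for 1053 of the 6330 probes, and these are genes that the study listed as different between the strains on these same arrays, so counts over gene lists are not independent evidence of their direction. Median net intensity ranged from 11.4 to 22.9 between arrays. Of the arrays, 3 had image names of another form and are called the other lot here. They were both arrays of the mutant at 36.5 g/L and 1 of the mutant at 34.8 g/L. No label says that they were printed in a separate lot. All 3 lay in the mutant group at high glucose and none in another group, so lot and group cannot be told apart except through the 1 remaining array of that group. Probes on chromosome X had a median level of 0.50 in V5 at 10.5 g/L, 0.29 in V5 at 7.4 g/L, and 0.22 and 0.20 in the mutant samples.

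Of the 6330 probes, 34 differed between the mutant at high glucose and V5 at low glucose at an adjusted p under 0.05 (0.537%, limma with Benjamini-Hochberg adjustment), of which 26 were higher in the mutant (0.411%) and 8 lower (0.126%). All 34 differed at least 2-fold, and in all 34 both mutant samples lay on one side of both V5 samples. Of these, 19 higher and 6 lower genes had a name. At an unadjusted p under 0.05 the number was 908 (14.3%). Against V5 at high glucose, the same mutant samples gave 165 calls (2.61%), 113 higher (1.79%) and 52 lower (0.821%). V5 at low glucose gave 0 calls (0.0%) against V5 at high glucose in the same limma fit, with 699 probes (11.0%) at an unadjusted p under 0.05 and between 0 and 142 calls under other settings. The number of calls rested on single samples. It was 24 and 2 without the mutant at 36.5 and at 34.8 g/L, and 17 and 19 without V5 at 10.5 and at 7.4 g/L, of which 6, 2, 5 and 10 were among the 34. Without the 3 arrays of the other lot it was 66 (22 higher, 44 lower), which included 14 of the 34.

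**Figure D1:**
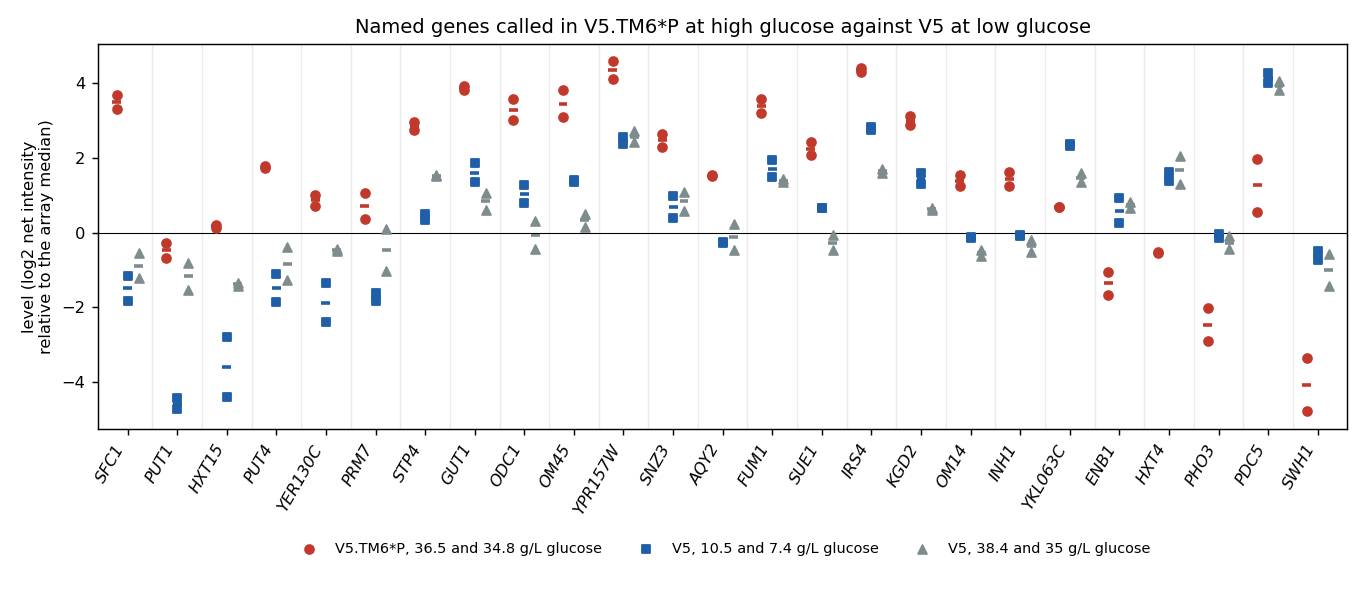
Level of each named gene called in the main comparison, as log2 net intensity relative to the array median (vertical axis), for the mutant at high glucose (circles), V5 at low glucose (squares) and V5 at high glucose (triangles). Each point is 1 RNA sample, short lines are group means, and genes run from the largest positive difference (SFC1, 4.99) to the largest negative one (SWH1, -3.44).

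The named genes higher in the mutant included mitochondrial carriers and enzymes of the tricarboxylic acid (TCA) cycle. SFC1 (YJR095W), which encodes the carrier that exchanges succinate and fumarate across the inner mitochondrial membrane, had the largest difference. Its level was 3.69 and 3.32 in the mutant samples, -1.15 and -1.82 in V5 at 10.5 and 7.4 g/L, and -1.22 and -0.54 in V5 at 38.4 and 35 g/L. The V5 samples overlapped between the glucose concentrations, and the mutant was 31.7-fold higher than V5 at low glucose (log2 difference 4.99 ± 0.37 SE, adjusted p = 0.00337 by limma). SFC1 was the only call on chromosome X, where the median difference over all probes was -0.23. It was called under 16 of 17 alternatives, among them all 4 that left out a sample, the exception being the fit to these 4 samples alone. ODC1 (YPL134C), a carrier of oxodicarboxylates such as 2-oxoglutarate, was at 3.59 and 3.00 in the mutant against 0.80 and 1.28 in V5 at low glucose (2.25 ± 0.35, adjusted p = 0.0451). V5 at high glucose was lower again, at -0.43 and 0.32. Without the arrays of the other lot, the difference of ODC1 was 1.83 and its adjusted p 0.105.

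The 2 called TCA cycle genes showed the same order of samples. FUM1 (YPL262W), fumarase, was at 3.20 and 3.58 in the mutant, 1.49 and 1.94 in V5 at low glucose, and 1.42 and 1.36 in V5 at high glucose. The difference from V5 at low glucose was 1.68 ± 0.25 (adjusted p = 0.0451). KGD2 (YDR148C), a subunit of 2-oxoglutarate dehydrogenase, was at 2.87 and 3.13 against 1.31 and 1.59 (1.56 ± 0.24, adjusted p = 0.0451). INH1 (YDL181W), which encodes an inhibitor of ATP hydrolysis by the ATP synthase, was at 1.62 and 1.24 in the mutant and at -0.06 and -0.08 in V5 at low glucose (1.50 ± 0.25, adjusted p = 0.0484). SUE1 (YPR151C), needed for the breakdown of unstable cytochrome c, differed by 1.59 ± 0.26. OM45 (YIL136W) encodes an abundant protein of the outer mitochondrial membrane, with levels of 3.81 and 3.10 in the mutant and 1.42 and 1.36 in V5 at low glucose (2.06 ± 0.31, adjusted p = 0.0451). OM14 (YBR230C), another outer membrane protein, was at 1.24 and 1.54 against -0.15 and -0.11 (1.52 ± 0.25, adjusted p = 0.0484). Neither group overlapped the other for any of these genes, which held for all 34 calls and so adds nothing to them. OM14, KGD2 and IRS4 lay outside the rule for named genes and were chosen after their values were seen. Without the arrays of the other lot FUM1, KGD2, INH1, SUE1, OM45 and OM14 differed by 1.74, 1.62, 1.25, 1.34, 1.52 and 1.28.

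The study's own table of predicted Cat8 sites lists 7 genes that share an upstream consensus, IDP2 among them. All 7 sequences are printed because 3 of the genes, OM14, ODC1 and OM45, were called higher in the mutant than in glucose-poor V5. The other 4 were not called. The set was printed because of these calls, so 3 of 7 is no test of a link. Of all named probes, 1.8% were called higher. Without the arrays of the other lot the differences of OM14, ODC1 and OM45 were 1.28, 1.83 and 1.52. The study predicted Cat8 sites in further genes, whose sequences are not printed here. These included SFC1 and PUT4, which were called. They also included FBP1, PCK1, MDH2, STL1, JEN1, ALD6, CIT2, MLS1, CAT2 and CRC1, which were not. All are given as listed, 5′ to 3′, with the CC and CCG of the motif CCNNNNNNCCG in capitals where the letters hold it.
OM14: gCCgctggcCCG
ODC1: gCCgctggcCCG
OM45: gCCggtggcCCG
COX4: gCCgctgcaCCG
HXK1: gcccctggccag
IDP2: gCCggtggtCCG
YOR019W: gccgctcgcccc
OM14, on chromosome II, and ODC1, on chromosome XVI, carried the identical letters, the first on the plus and the second on the minus strand. Counted from 1 at the 5′ end and relative to OM14, OM45 differed by C5G, COX4 (chromosome VII) by G8C and C9A, and IDP2 by C5G and C9T. HXK1 differed by G4C and C11A and YOR019W (chromosome XV) by G7C and G12C, and neither holds the motif in these letters. The differences from V5 at low glucose were 1.52, 2.25, 2.06, 0.82, 1.05, 1.26 and -1.29 in the order printed. That of YOR019W changed sign, to 1.01 in the authors' table and 0.14 without the arrays of the other lot. COX4, a subunit of cytochrome c oxidase, and YOR019W lay outside the rule for named genes, and their adjusted p were 0.324 and 0.468. The share of other promoters that hold the motif was not computed here, and a match of letters is no test of binding.

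Of the named genes of proline use, PUT4 and PUT1 were called and PUT2 (YHR037W), for the second step of proline breakdown, was not (-0.50 ± 0.25). PUT2 lay outside the rule for named genes. PUT4 (YOR348C), the proline permease, was at 1.73 and 1.79 in the mutant, -1.85 and -1.10 in V5 at low glucose, and -1.26 and -0.40 in V5 at high glucose. The mutant was 9.42-fold above V5 at low glucose (3.24 ± 0.40, adjusted p = 0.0248), and PUT4 was called against V5 at high glucose too (2.59, adjusted p = 0.0213). PUT1 (YLR142W), the proline oxidase of mitochondria, differed by 4.10 ± 0.40 (adjusted p = 0.00888), but in another way. Its level was -0.67 and -0.28 in the mutant, -1.53 and -0.81 in V5 at high glucose, and -4.44 and -4.73 in V5 at low glucose, where a spot lay under the intensity floor of 0.1 on 2 of the 4 arrays. Most of the difference lay in these low values of V5. It was 2.75 without the floor (adjusted p = 0.226) and 0.55 in the authors' own value table (adjusted p = 0.602).

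Among genes of carbon uptake and use, GUT1 (YHL032C), glycerol kinase, was at 3.93 and 3.81 in the mutant, 1.35 and 1.85 in V5 at low glucose, and 0.62 and 1.06 in V5 at high glucose. The difference from V5 at low glucose was 2.27 ± 0.26 (adjusted p = 0.0202). HXT15 (YDL245C), a hexose transporter gene that the mutant retains, was at 0.21 and 0.12 in the mutant against -2.79 and -4.39 in V5 at low glucose (3.76 ± 0.52, adjusted p = 0.0404), where 1 of 4 arrays fell below the floor. Its probe cannot separate HXT15 from the near-identical HXT16, for which the difference was 1.13 ± 1.09 (adjusted p = 0.696). From high to low glucose, V5 changed by -2.21 ± 0.52 at the HXT15 probe and by 2.05 ± 1.09 at the HXT16 probe. Neither change was called, and why these probes went opposite ways was not tested. Apart from carbon use, AQY2 (YLL052C), a water channel, was also called. It was at 1.54 and 1.51 in the mutant and at -0.27 and -0.26 in V5 at low glucose (1.78 ± 0.29).

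The remaining named genes higher in the mutant had varied roles. STP4 (YDL048C), which encodes a zinc finger protein, was at 2.74 and 2.97 in the mutant and at 0.34 and 0.51 in V5 at low glucose (2.43 ± 0.22, adjusted p = 0.00888). V5 at high glucose, at 1.52 and 1.54, lay between them. STP4 was called under 15 of 17 alternatives. YER130C, with levels of 0.72 and 1.02 against -1.36 and -2.39, and PRM7 (YDL039C), with 0.35 and 1.07 against -1.84 and -1.60, also had their lowest levels in V5 at low glucose. SNZ3 (YFL059W), of a family tied to vitamin B6 synthesis and nearly identical to SNZ2, differed by 1.79 ± 0.28 and IRS4 (YKR019C) by 1.57 ± 0.22. YPR157W was at 4.58 and 4.13 in the mutant and between 2.38 and 2.71 in all 4 V5 samples (1.89 ± 0.27). Without the arrays of the other lot STP4, YER130C, PRM7, SNZ3, IRS4 and YPR157W differed by 2.26, 3.00, 3.02, 1.92, 1.49 and 1.37.

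Of the genes lower in the mutant, PDC5 (YLR134W) encodes a pyruvate decarboxylase, the enzyme that commits pyruvate to ethanol. It was at 0.56 and 1.98 in the mutant, 4.00 and 4.27 in V5 at low glucose, and 3.81 and 4.06 in V5 at high glucose. The mutant thus stood at 0.137 of the V5 signal at low glucose (-2.86 ± 0.43, adjusted p = 0.0451), and its samples were farther apart than those of V5. The main isozyme, PDC1 (YLR044C), was at 2.86 and 3.55 against 4.62 and 4.86 and did not pass the threshold (-1.53 ± 0.34, adjusted p = 0.0937). HXT4 (YHR092C), deleted in the mutant, was at -0.55 and -0.53 in the mutant and at 1.38 and 1.61 in V5 at low glucose (-2.04 ± 0.30, adjusted p = 0.0451). The probes of closely related hexose transporter genes can share signal, and this holds for HXT4 too. ENB1 (YOL158C), a transporter of ferric enterobactin, was at -1.66 and -1.06 against 0.92 and 0.25 (-1.94 ± 0.32, adjusted p = 0.0484).

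Of the other low calls, SWH1 and PHO3 had spots under the floor. SWH1 (YAR042W), of the oxysterol-binding protein family, had the largest negative difference among the named genes (-3.44 ± 0.53, adjusted p = 0.0451), with a spot under the floor on 3 of the 4 mutant arrays. With normexp background correction, an offset of 50 and quantile normalization in place of the floor, the difference of SWH1 was -0.19 (adjusted p = 0.0600 by limma). That offset lies above the median net intensity of every array and shrinks log2 differences of dim probes. This holds wherever a value with normexp is given, and its share in the change was not tested. SWH1 was at -3.35 and -4.79 in the mutant against -0.74 and -0.50. PHO3 (YBR092C), an acid phosphatase, was at -2.91 and -2.03 against -0.14 and -0.02 (-2.39 ± 0.32), with 1 mutant array under the floor. Without the arrays of the other lot its difference was -0.81 (adjusted p = 0.259). YKL063C was at 0.69 and 0.68 in the mutant, 2.37 and 2.31 in V5 at low glucose, and 1.36 and 1.59 in V5 at high glucose (-1.65 ± 0.26).

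Each difference is the sum of the strain difference at high glucose and the change of V5 between its low and high glucose samples, taken with the opposite sign. The comparisons share samples, so their values are set side by side and not tested against each other. Of the 19 named genes higher in the mutant, the strain difference at high glucose was the larger component in 15, and the lower level of glucose-poor V5 in 4, which were PUT1, HXT15, YER130C and PRM7. In HXT15 this part is uncertain, because the probe of the near-identical HXT16 went the other way. In PUT1, 83.1% of the difference came from V5, and in SFC1 12.1%. Among the 15, the part from V5 was negative in IRS4, SUE1, KGD2, OM45, ODC1, GUT1, OM14, INH1 and FUM1, from -72.1% to -19.2%. In these genes glucose-poor V5 stood nearer the mutant than V5 at high glucose did. The part was positive in STP4, PUT4, SFC1, SNZ3, AQY2 and YPR157W, from 45.5% to 5.8%. Of the 6 lower named genes, the strain difference was the larger component in 5. YKL063C was the exception, with 52.4% from V5. Over all 26 higher calls, with or without a name, the strain difference was the larger component in 16 and the change of V5 in 10, and over all 8 lower calls in 6 and 2. Names were at hand only for genes that the study listed as different between the strains, so the share among named genes follows in part from the naming. Of the 7 higher probes without a name, the change of V5 was the larger component in 6.

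**Figure D2:**
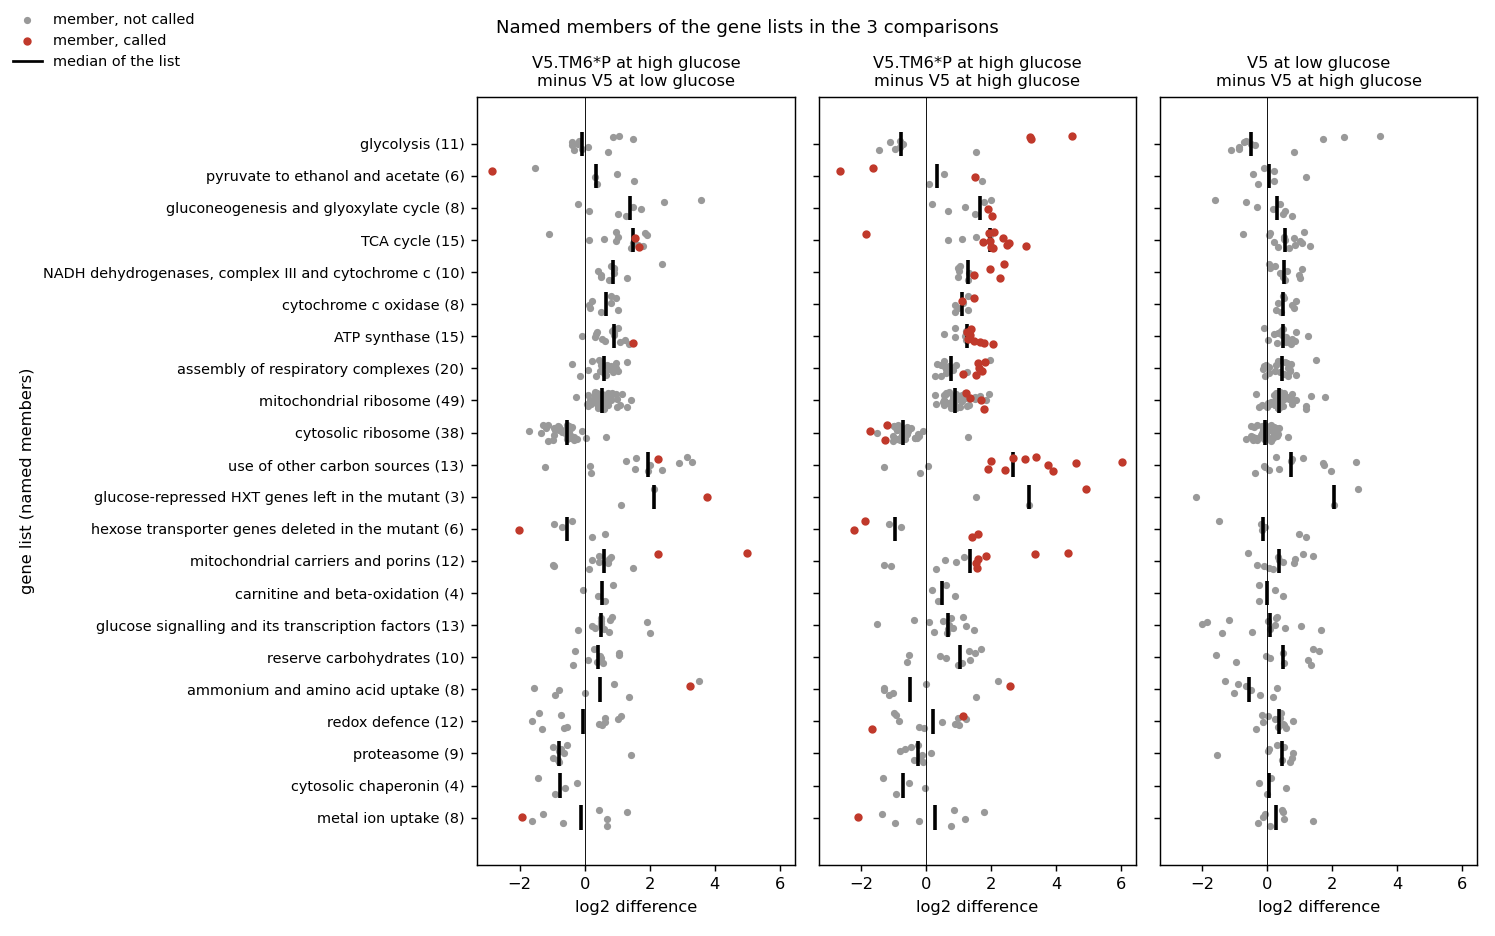
Log2 difference (horizontal axis) of each named member of the gene lists (rows, with the number of named members) in the 3 comparisons. Grey points are members that were not called, red points are called members and black bars are list medians, which for the TCA cycle stood at 1.49, 1.96 and 0.56 from left to right.

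Gene lists were then described by their named members, against 40.6% of all named probes with both mutant samples above both glucose-poor V5 samples, 31.7% with both below, and a median difference of 0.14 over the 1053 named probes. Calls among named probes were 1.8% higher and 0.57% lower in this comparison, and 9.88% higher and 2.94% lower against V5 at high glucose. Over all 6330 probes, 21.6% had both mutant samples above and 24.0% below. Of the TCA cycle, 2 of 15 members were called higher and 13 of 15 had both mutant samples above V5 at low glucose. Against V5 at high glucose 10 were called higher. The list median was 1.49 in the main comparison (0.91 with normexp), 1.96 against V5 at high glucose and 0.56 for V5 between its samples. Members that missed the threshold included ACO1, aconitase, at 3.54 and 3.16 against 1.13 and 1.88 (1.85 ± 0.34, adjusted p = 0.0662), and SDH4, a subunit of succinate dehydrogenase, at 6.30 and 5.71 against 4.46 and 3.97 (1.79 ± 0.36, adjusted p = 0.0820). IDH1, of the NAD-dependent isocitrate dehydrogenase, differed by 1.91 ± 0.66. At the other end, LSC1, of succinyl-CoA ligase, differed by 0.13, LPD1 by 0.60 and CIT1, citrate synthase, by 0.95.

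Gluconeogenesis and the glyoxylate cycle had 0 calls among 8 members, but 7 of 8 had both mutant samples above V5 at low glucose, and the median was 1.38, or 0.42 with normexp. FBP1, fructose-1,6-bisphosphatase, was at 0.14 and 0.65 in the mutant and at -1.38 and -5.02 in V5 at low glucose (3.59 ± 0.97, adjusted p = 0.153). A spot on 1 of the V5 arrays lay below the floor. PCK1, phosphoenolpyruvate carboxykinase, was at 1.13 and 0.19 against -2.69 and -0.85 (2.43 ± 0.57, adjusted p = 0.110). The V5 samples stood far apart for both genes. MDH2, the cytosolic malate dehydrogenase, was more even, at 1.28 and 0.77 against -0.78 and -0.65 (1.74 ± 0.32, adjusted p = 0.0662). MLS1, malate synthase, differed by 1.50, IDP2 by 1.26 and CIT2 by 1.03. ICL1, isocitrate lyase, overlapped, at 1.66 and 1.21 against 1.49 and 1.80, and MDH3 differed by 0.14.

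Use of other carbon sources had a median of 1.95, or 0.86 with normexp, with 1 of 13 members called and 10 of 13 with both mutant samples above. Against V5 at high glucose 10 members were called higher. STL1, the glycerol symporter, was at 2.96 and 3.30 in the mutant, -0.79 and 0.45 in V5 at low glucose, and -1.90 and -3.89 in V5 at high glucose (3.30 ± 0.67 against V5 at low glucose, adjusted p = 0.0878). SUC2, invertase, was at 2.90 and 2.38 against -1.07 and 0.08, and V5 at high glucose was at -0.78 and -0.73. Its difference of 3.14 ± 0.53 narrowly missed the threshold (adjusted p = 0.0526). JEN1, the lactate permease, differed by 2.91 ± 0.83 (adjusted p = 0.167), and BDH2, related to butanediol dehydrogenase, by 2.38 ± 0.45 (adjusted p = 0.0717). GUT2, the mitochondrial glycerol-3-phosphate dehydrogenase, differed by 1.28. DLD2 and DSF2 differed by 0.15 and 0.19 and overlapped. The paper's text proposes a role in carbon use for DSF1 and does not mention DSF2, which this list counts. DLD3, a lactate dehydrogenase, was at 3.78 and 4.43 against 5.15 and 5.47 (-1.21 ± 0.38, adjusted p = 0.215).

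In the respiratory chain, medians were 0.86 for the 10 named genes of NADH dehydrogenases, complex III and cytochrome c, 0.65 for 8 of cytochrome c oxidase, 0.91 for 15 of the ATP synthase and 0.60 for 20 assembly factors, with INH1 as the 1 call. With normexp they were 0.57, 0.21, 0.48 and 0.23, and that of cytochrome c oxidase was 0.37 without V5 at 7.4 g/L. Against V5 at high glucose these lists held 4, 2, 8 and 6 calls, all higher. Both mutant samples lay above both V5 samples in 9 of 10, 8 of 8, 13 of 15 and 14 of 20 members. NDI1, the internal NADH dehydrogenase, had the largest difference, at 2.94 and 3.29 against 0.40 and 1.09 (2.37 ± 0.43, adjusted p = 0.0662), and V5 at high glucose was at 0.54 and 0.87. QCR10 and COX17 differed by 1.30 each, STF2 by 1.35, ATP19 by 1.23, COX12 by 1.03, FMC1 by 1.02 and COX5A by 0.97. Values were near 0 for COX8 (0.13), COX9 (0.15), ATP16 (-0.08) and PET117 (-0.15). COR1, ATP17 and ATP14 lay between, at 0.40, 0.32 and 0.35, and SCO1 was at -0.39. Mitochondrial ribosomal protein genes had 0 calls among 49 members, 48 positive differences and a median of 0.54 (0.24 with normexp), from -0.27 (MRPL15) to 1.42 (MRPL31). RSM25 was at 1.29 and MRPS18 at 0.07. The genes of the cytosolic ribosome lay the other way. Of 38 members 0 were called, 28 had both mutant samples below both V5 samples, and the median was -0.56. RPL43B, a large-subunit protein gene with a near-identical copy, was at 0.99 and 1.03 against 2.91 and 2.55 (-1.72 ± 0.30, adjusted p = 0.0640). RPS10B differed by -1.35 ± 1.34, with samples of both strains near the floor, RPS29A by 0.03 and RPS27A by 0.65.

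In glycolysis, 0 of 11 members were called in the main comparison, against 3 called higher against V5 at high glucose. The list median was -0.08, and with 1 sample left out it lay between -0.31 and 0.11. TDH3, TPI1 and CDC19, which encode glyceraldehyde-3-phosphate dehydrogenase, triose phosphate isomerase and pyruvate kinase, differed by -0.39, -0.39 and -0.33 from V5 at low glucose and by -0.77, -1.11 and -1.44 from V5 at high glucose. None of these passed the threshold. From pyruvate onward, ALD6, the cytosolic aldehyde dehydrogenase, was at 4.02 and 4.12 against 2.08 and 3.02 (1.52 ± 0.45, adjusted p = 0.182), and ADH3, the mitochondrial alcohol dehydrogenase, differed by 1.00.

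Among hexose transporter genes left in the mutant, HXT13, which shares sequence with HXT17, was at 1.07 and 0.88 in the mutant, -0.98 and -1.33 in V5 at low glucose, and -3.18 and -4.72 in V5 at high glucose (2.13 ± 0.89 against V5 at low glucose, adjusted p = 0.323). Of the deleted genes, HXT2 was at -0.91 and -0.65 against 0.12 and 0.19 (-0.93, adjusted p = 0.293). Probes for HXT1, HXT3, HXT6 and HXT7 gave strong signals in the mutant too, where TM6* carries HXT1 and HXT7 sequence and the family is closely related, so they do not measure the deleted genes there. HXT3 differed by -0.70 and HXT6 by 0.63. Of 12 mitochondrial carriers and porins, 2 were called, SFC1 and ODC1. LEU5, needed for coenzyme A in mitochondria, was at 1.65 and 1.40 against -0.43 and 0.49 (1.50 ± 0.33, adjusted p = 0.0937). SAL1 differed by 0.15, OAC1 by -0.95 and POR2 by -0.97.

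The other lists held few calls. In uptake of ammonium and amino acids 1 of 8 was called, PUT4. ATO2, a putative ammonium transporter, was at 1.14 and 1.54 against -1.25 and -3.10 (3.52 ± 0.65, adjusted p = 0.0684), while MUP3 and BAP3, amino acid permeases, differed by -0.92 and -1.57. The median, 0.46, was 0.19 to 0.72 with 1 sample left out, 0.20 with normexp and 0.01 without the other lot. In metal ion uptake 1 of 8 was called, ENB1. FET4, a low-affinity iron transporter, differed by -1.62, FRE7 by 0.68 and CTR3, a copper transporter, by 1.30. None was called among 12 redox genes, where CTT1, catalase T, and AHP1, a peroxiredoxin, differed by -1.62 and -1.41 and SOD2 and YHB1 by 1.02 and 1.12. Of 9 proteasome genes 0 were called and 8 had both mutant samples below V5, with a median of -0.80, or -0.52 without the mutant at 34.8 g/L. PRE3 was at -0.99, RPT1 at -0.97 and PRE2 at -0.54, and RPN6, dim in all samples, at 1.43. All 4 named chaperonin genes were below V5 in both samples without a call, at -1.45 (CCT3), -0.90 (CCT8), -0.61 (CCT6) and -0.24 (CCT5), and all but CCT6 are on chromosome X, whose probes stood high in V5 at 10.5 g/L. The part of that shift in these values was not tested. Among 13 genes of glucose signalling 0 were called, with a median of 0.51 (0.086 with normexp), from -0.19 for GIS1 to 2.02 for PIP2. MIG2, a repressor related to Mig1, differed by 1.93 and REG2 by 0.21. For MIG2, PIP2 and GIS1 a spot lay under the floor on 1 of the 4 V5 arrays at low glucose. Their differences changed sign in the authors' table, to -0.85, -1.19 and 1.40. Reserve carbohydrate genes had 0 calls among 10 and a median of 0.42, which was 0.10 with normexp and -0.11 without the mutant at 36.5 g/L. GLC3 differed by 1.04, GAC1 by 1.07, GSY2 by -0.30 and NTH2 by -0.36. The 4 carnitine and beta-oxidation genes CAT2, ANT1, EHD3 and TES1 differed by 0.87, 0.63, 0.41 and -0.05, with 0 calls.

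HXK1, GLK1 and EMI2, the named genes of the glycolysis list for glucose-phosphorylating kinases or a relative, were called against V5 at high glucose. They were not called against V5 at low glucose. HXK1 (YFR053C), the hexokinase expressed when glucose is scarce, was at 6.96 and 6.12 in the mutant, 5.62 and 5.36 in V5 at low glucose, and 1.32 and 2.75 in V5 at high glucose. It differed by 4.51 from V5 at high glucose (adjusted p = 0.00482) and by 1.05 ± 0.47 from V5 at low glucose (adjusted p = 0.362), and V5 was 3.46 higher at low than at high glucose, which was not called (adjusted p = 0.0606). GLK1 (YCL040W), glucokinase, was at 3.07 and 3.47 in the mutant, 2.55 and 2.25 in V5 at low glucose, and -0.32 and 0.43 in V5 at high glucose. Its differences were 3.21 and 0.87 in the same order. EMI2 (YDR516C), a relative of GLK1, was at 3.09 and 3.08 against 1.42 and 1.76, with a difference of 1.50 ± 0.31 from V5 at low glucose that was not called (adjusted p = 0.0878) and of 3.22 from V5 at high glucose. The difference of EMI2 from V5 at low glucose was as large as that of INH1, which was called. Both mutant samples were still above V5 for all 3 genes, and the values at low glucose do not show that the strains were alike.

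**Figure D3:**
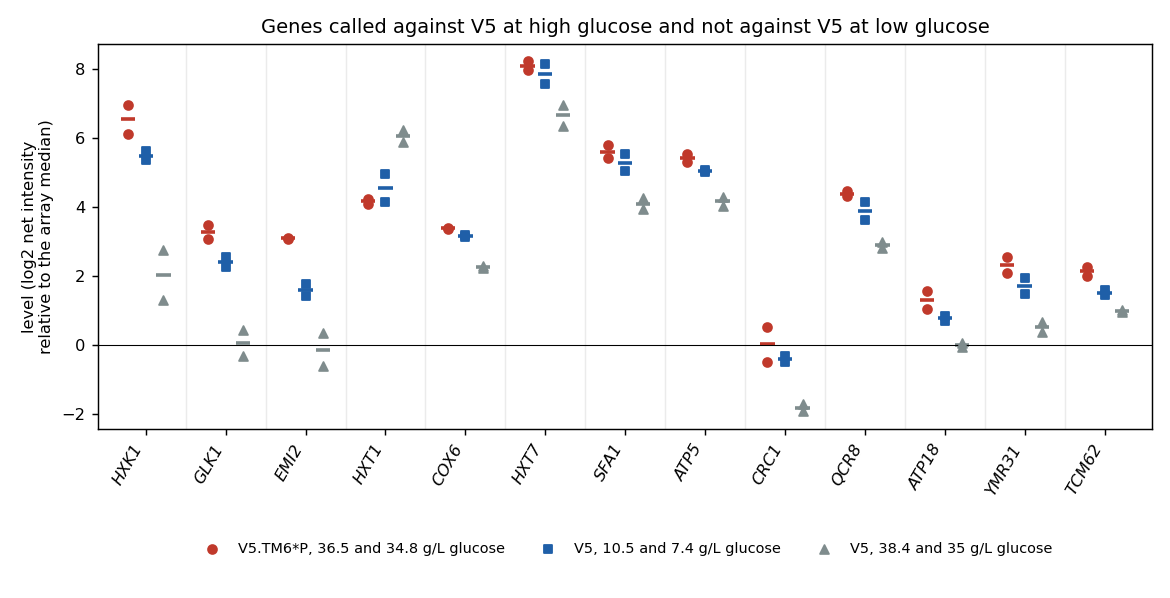
Levels (log2 net intensity relative to the array median) of genes called between the mutant and V5 at high glucose but not between the mutant and V5 at low glucose, with symbols as in the plot of called genes. For HXK1 the V5 samples stood at 1.32 and 2.75 at high glucose and at 5.62 and 5.36 at low glucose, next to 6.96 and 6.12 in the mutant.

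Among genes called against V5 at high glucose by at least 2-fold, the 10 list members with the smallest difference from V5 at low glucose were then taken. COX6, of cytochrome c oxidase, was at 3.36 and 3.41 in the mutant and at 3.12 and 3.20 in V5 at low glucose (0.22 ± 0.21), against 2.25 and 2.30 in V5 at high glucose. SFA1, an alcohol and formaldehyde dehydrogenase, overlapped, at 5.80 and 5.41 against 5.03 and 5.54 (0.32 ± 0.31), as did CRC1, the carnitine carrier, at 0.53 and -0.48 against -0.32 and -0.50 (0.43 ± 0.34). ATP5 and ATP18 of the ATP synthase differed by 0.38 ± 0.21 and 0.53 ± 0.25, QCR8 of complex III by 0.49 ± 0.28, YMR31, a mitochondrial ribosomal protein gene, by 0.61 ± 0.27, and TCM62, an assembly factor of succinate dehydrogenase, by 0.61 ± 0.21. The probe of HXT7 differed by 0.24 ± 0.29 and that of HXT1 by -0.39 ± 0.32, both with the limit given above. HXT1, the transporter gene induced by high glucose, was at 6.22 and 5.88 in V5 at high glucose and at 4.15 and 4.95 in V5 at low glucose, next to 4.23 and 4.09 in the mutant.

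**Figure D4:**
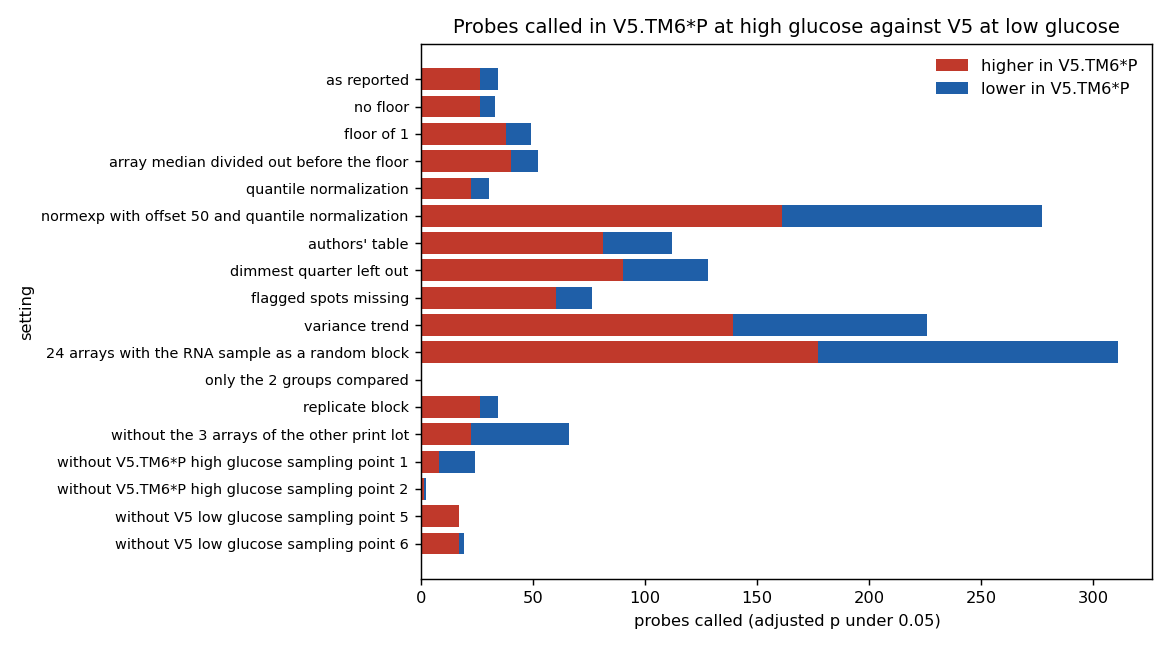
Number of probes called in the main comparison (horizontal axis, adjusted p under 0.05) under each setting, as higher (red) or lower (blue) in the mutant. The setting as reported gave 34, the fit to the 4 samples alone 0 and the fit to all 24 arrays 311.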

How the data were processed

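Total RNA was amplified, labelled with 33P and hybridised to filter arrays of PCR-amplified yeast open reading frames. Per the file headers, the deposited intensity of each spot is the median pixel value from the imaging software, with the local background beside it. A flag code and a value table of background-subtracted intensity, scaled by the authors in a way not given in the sources used here, are also deposited. Here background was subtracted, values under 0.1 were set to 0.1 as in the study's methods, log2 was taken, the spots of each probe were averaged, each array was centred on its median, and the mean of the 2 arrays stood for an RNA sample. The fit used limma 3.58.1 (R 4.3.3) over all 12 RNA samples in 6 groups of 2, with empirical Bayes variances (6 residual and 2.46 prior degrees of freedom) and Benjamini-Hochberg adjustment over 6330 probes. Strain groups came from the labels. The script was tested on simulated data first.

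Probes had no names in the files. Of the 6330, 1053 were named through the value tables of the study's listed genes and the print order, and 988 matched a reference locus tag. The nearest values alone named 841, and all 841 were then found to lie in print order. A further 209 were named by rounded values and print order together, of which 145 had a single matching probe by value. The other 3 were named by a listed factor and the print order. Members and gene lists were chosen with earlier results of these data known. Genes named are the members of the lists with the largest and smallest differences, the 15 called named genes with the largest difference in each direction and the 10 list members with the smallest difference among those called against V5 at high glucose. Whole-gene probes do not separate near-identical copies. The number of arrays, 2 per RNA sample and 2 RNA samples per group, limits the precision. Alternatives changed the floor, the normalization, the value table, the dim-probe filter, flagged spots, the variance model and the samples fitted. Others left out the 3 arrays with image names of another form, or each sample in turn. A named gene covered by the rule is not reported here.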

Additional observations from a re-analysis of the deposited data

How the results depend on the processing

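The count of 34 calls in the main comparison was 33 without a floor, 49 with a floor of 1 and 30 with quantile normalization. It was 52 with the median divided out before the floor, 277 with normexp, 112 in the authors' table, 128 without the dimmest probes, 76 with flagged spots missing, 226 with a variance trend, 311 with all 24 arrays and the RNA sample as a random block, 0 with only the 2 groups and 66 without the other lot. With 1 sample left out it ranged from 2 to 24. For the mutant against V5 at high glucose, 165 became 521 with normexp, 329 in the authors' table, 356 without the dimmest probes, 455 with a variance trend, 586 with all arrays, 0 with only the 2 groups, and 34 to 91 with 1 sample left out. For V5 between low and high glucose, 0 became 8, 4, 112, 10, 21, 11, 58 and 142 with the median first, quantile, normexp, the table, the dimmest probes out, flagged spots missing, the trend and all arrays, and 2 to 26 with 1 sample left out. With 1 sample left out, the lone sample was assumed to vary like the other groups. The causes were not tested.

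Sampling-point numbers did not pair the samples. Deviations of same-numbered samples of the strains correlated at 0.05, 0.05 and 0.03 over probes at high, middle and low glucose. With the sampling-point number as a replicate block, the counts were 34, 186 and 0.

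All 25 called named genes kept their direction under every alternative that gave a value, but in the 4 fits with 1 sample left out, 16 of them were called in 0, 6 in 1, 2 in 3 and 1, SFC1, in 4. Genes that changed sign were all uncalled. In the authors' table the differences were 0.28 (ICL1), 0.22 (ATP16), 0.10 (PET117), 0.42 (MRPL15), 0.47 (RPS10B), -0.35 (RPS29A), 0.90 (TES1), 1.40 (GIS1), -0.85 (MIG2), -1.19 (PIP2), 0.75 (GSY2), -0.49 (GAC1) and 1.01 (YOR019W). Without the other lot they were -0.27 (CRC1), 0.10 (CDC19), -0.33 (LSC1), -0.29 (COX8), 0.0043 (ATP16), 0.36 (RPS10B), 0.12 (GSY2), 0.15 (CCT5), 0.0047 (PUT2) and 0.14 (YOR019W). GAC1 was at -0.14 without a floor and -1.88 with flagged spots missing. With 1 sample left out, differences ranged from -0.048 to 0.52 for HXT7, -0.79 to 0.014 for HXT1, -0.069 to 0.93 for CRC1, -0.77 to 0.11 for CDC19, -0.44 to 0.017 for ICL1, -0.049 to 0.30 for LSC1, -0.046 to 0.85 for COR1, -0.41 to 0.26 for ATP16, -0.46 to 0.16 for PET117, -0.0040 to 0.14 for MRPS18, -3.14 to 0.44 for RPS10B, -0.26 to 0.32 for RPS29A, -0.094 to 0.47 for DSF2, -0.34 to 0.23 for TES1, -1.78 to 1.39 for GIS1, -0.60 to 0.0079 for GSY2 and -0.31 to 2.45 for GAC1. Dim probes carry the widest ranges, and between 1.12% and 2.05% of spots per array lay under the floor.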
